A study of Mus musculus with 9 samples.

Results

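Endothelial chemokines and cytokines were followed as 10 genes chosen by name: the chemokines Ccl2, Ccl7, Cxcl1, Cxcl10, Cxcl12, Cxcl16 and Cx3cl1, the cytokines Il6 and Il33, and the growth factor Csf1. Each was found as 1 locus among 37104 loci, and 6 of the 10 passed the filter on low values that left 11107 genes for testing. RNA came from cultured primary mouse lung endothelial cells (MLEC) that had been selected with ICAM2 antibody beads, on a C57BL/6J background from adult mice of 10-12 weeks, and each library stood for 1 isolation that pooled the lungs of 4 mice. The study asked how loss of the JNK kinases in endothelium changes these cells. Levels are FPKM, fragment counts scaled to transcript length and to the library's mapped fragments.

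The 3 genotypes had 3 libraries each, and every one of them lacked Jnk3 (Mapk10) throughout the body. ECtrl cells carried Cdh5-Cre with wild-type Jnk1 and Jnk2. EfCtrl cells carried LoxP-flanked Jnk1 and Jnk2 without Cre. E3KO cells carried Cdh5-Cre together with LoxP-flanked Jnk1 and Jnk2, so that both are deleted where the endothelial cadherin promoter drives Cre. The study therefore compares loss of Jnk1 and Jnk2 on a Jnk3-deficient background, and a wild-type Jnk3 group was not analysed here.

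Chemokines are small secreted or membrane-held proteins that draw leukocytes along a gradient by binding G protein-coupled receptors. Endothelium presents them on its luminal surface, where they turn rolling leukocytes into firmly attached ones, and it makes cytokines that act on the cells that have left the vessel. Many of these genes are induced by inflammatory signals through NF-kappaB and AP-1, and the JNK kinases phosphorylate Jun, a subunit of AP-1.

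The chemokine families take their names from the spacing of the first conserved cysteines, and the coding stretch that holds them shows which family each member belongs to. Stretches are from the GENCODE M21 transcripts on GRCm38/mm10, read 5′ to 3′ on the coding strand, with those cysteine codons in capitals. The codons are adjacent in the CC genes, have 1 codon between them in the CXC genes and 3 between them in Cx3cl1.
Ccl2: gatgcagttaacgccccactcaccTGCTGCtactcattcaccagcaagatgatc
Ccl7: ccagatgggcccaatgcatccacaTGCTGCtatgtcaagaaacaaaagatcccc
Cxcl1: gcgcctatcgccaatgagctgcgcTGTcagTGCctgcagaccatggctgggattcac
Cxcl12: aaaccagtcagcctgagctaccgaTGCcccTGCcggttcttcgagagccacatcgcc
Cxcl16: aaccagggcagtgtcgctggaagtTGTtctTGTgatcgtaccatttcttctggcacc
Cx3cl1: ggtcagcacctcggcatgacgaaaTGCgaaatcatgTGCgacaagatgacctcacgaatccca
The stretches of Ccl2 and Ccl7 lie across exons 1 and 2 of 3, at chr11:82035737-82036535 and chr11:82045856-82046567 on the plus strand. That of Cxcl1 is in exon 2 of 4 at chr5:90891472-90891528 (plus strand), that of Cxcl12 in exon 2 of 4 at chr6:117171484-117171540 (plus strand), that of Cxcl16 in exon 2 of 5 at chr11:70459103-70459159 (minus strand), and that of Cx3cl1 across exons 1 and 2 of 3 at chr8:94772334-94778089 (plus strand).

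Promoters were searched for NF-kappaB, AP-1 (TGANTCA), the interferon-response core (GAAA, any 2 bases, GAAA), the cyclic AMP element (TGACGTCA) and the TATA box (TATAAA) on both strands, since JNK acts on a subunit of AP-1. RefSeq promoters on GRCm38.p6 were at hand for 7 of the 10 genes (not Ccl2, Ccl7 and Cxcl16), each with 250 bases before and 50 after the start. The 220 bases before the start are shown for the 4 genes with an NF-kappaB match, written 5′ to 3′ in the direction of the gene, with matches to NF-kappaB, AP-1 and the interferon-response core in capitals.
Csf1: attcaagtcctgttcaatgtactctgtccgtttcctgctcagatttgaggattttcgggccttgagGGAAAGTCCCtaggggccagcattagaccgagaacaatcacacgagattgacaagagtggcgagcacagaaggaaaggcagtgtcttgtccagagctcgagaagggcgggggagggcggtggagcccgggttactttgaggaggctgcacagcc
Cxcl1: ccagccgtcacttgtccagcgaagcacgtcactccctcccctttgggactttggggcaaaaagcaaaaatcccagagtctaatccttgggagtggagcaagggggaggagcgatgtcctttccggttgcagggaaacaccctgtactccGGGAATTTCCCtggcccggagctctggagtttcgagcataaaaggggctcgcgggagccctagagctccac
Cxcl10: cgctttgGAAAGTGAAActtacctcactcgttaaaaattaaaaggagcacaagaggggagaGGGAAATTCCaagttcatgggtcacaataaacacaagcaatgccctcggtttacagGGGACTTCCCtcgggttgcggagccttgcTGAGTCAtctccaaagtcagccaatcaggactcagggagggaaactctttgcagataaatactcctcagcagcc
Il6: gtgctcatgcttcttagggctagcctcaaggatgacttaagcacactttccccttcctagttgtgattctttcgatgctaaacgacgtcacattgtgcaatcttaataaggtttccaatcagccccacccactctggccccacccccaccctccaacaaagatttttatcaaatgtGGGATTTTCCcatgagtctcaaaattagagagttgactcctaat
These are chr3:107760470-107760689 (minus strand), chr5:90891025-90891244 (plus strand), chr5:92348890-92349109 (minus strand) and chr5:30012894-30013113 (plus strand). Csf1 held 1 NF-kappaB match, at -154 to -145 on the opposite strand. Cxcl1 held a pair of overlapping NF-kappaB matches on the 2 strands between -71 and -61. Cxcl10 held NF-kappaB matches at -159 to -150 and -103 to -94, the AP-1 heptamer at -74 to -68 and the interferon-response core at -213 to -204. Il6 held NF-kappaB at -44 to -35, and its AP-1 match at -249 to -243 lies just outside the stretch shown. In Cx3cl1 and Il33 only TATA letters were found, and Cxcl12 held none of the 5 motifs. Among all 32851 promoters, 4.505% held the NF-kappaB motif, 7.808% AP-1, 3.443% the interferon-response core, 1.79% the cyclic AMP element and 13.62% TATAAA. A match is a run of letters and was not tested as a binding site.

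The deleted genes were read first. Mapk9 (Jnk2) was at 27.6, 35.1 and 20.7 FPKM in E3KO replicates 1, 2 and 3 and at 42.7 to 50.9 FPKM in the 6 control libraries, a log2 difference of -0.75 (SE 0.15; limma, adjusted p = 0.0355) that was -0.76 without E3KO replicate 1. Mapk8 (Jnk1) was at 8.77 and 4.65 FPKM in E3KO replicates 2 and 3, but at 20.7 FPKM in the library labelled E3KO replicate 1, above the control range of 14.0 to 17.9 FPKM. Mapk10 was at or below 0.270 FPKM in all 9 libraries. FPKM is a value over the whole gene, to which transcript from a recombined allele can still contribute.

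The library labelled E3KO replicate 1 also stood apart in composition. Its FPKM summed to 9841810, against 656089 to 908401 in the other 8, and 96.4% of that sum lay in 10 symbols, against 40.9% to 56.8%. Once symbols averaging at least 5000 FPKM were left out, its sum of 420517 lay within the range of 388537 to 433172 of the others. The values do not give counts, and the methods state an average number of aligned reads only, so how deeply single libraries were sequenced is unknown. The members' calls, and those exact tests that are printed, are also given without this library. The endothelial identity of all groups was read from defining markers: Pecam1 lay between 643 and 798 FPKM in the E3KO libraries and between 649 and 771 FPKM in the controls, and Cdh5 between 716 and 943 FPKM and between 613 and 916 FPKM.

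Ccl2, Ccl7 and Csf1 were the members whose 3 E3KO libraries all lay above all 6 control libraries. Ccl2 and Ccl7, neighbouring genes on chromosome 11 whose products recruit monocytes, rose against the mean of both control groups by 1.27 and 1.79 on the log2 scale. Csf1, which keeps monocytes and macrophages alive, had a log2 difference of 0.82 that did not pass after adjustment. Against single control groups only Ccl2 passed, and only against ECtrl (adjusted p = 0.0461 in limma). No member had all E3KO libraries below the controls. Among the 11107 genes tested, 4.99% had all E3KO libraries above the controls and 11.4% had all of them below.

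**Figure D1:**
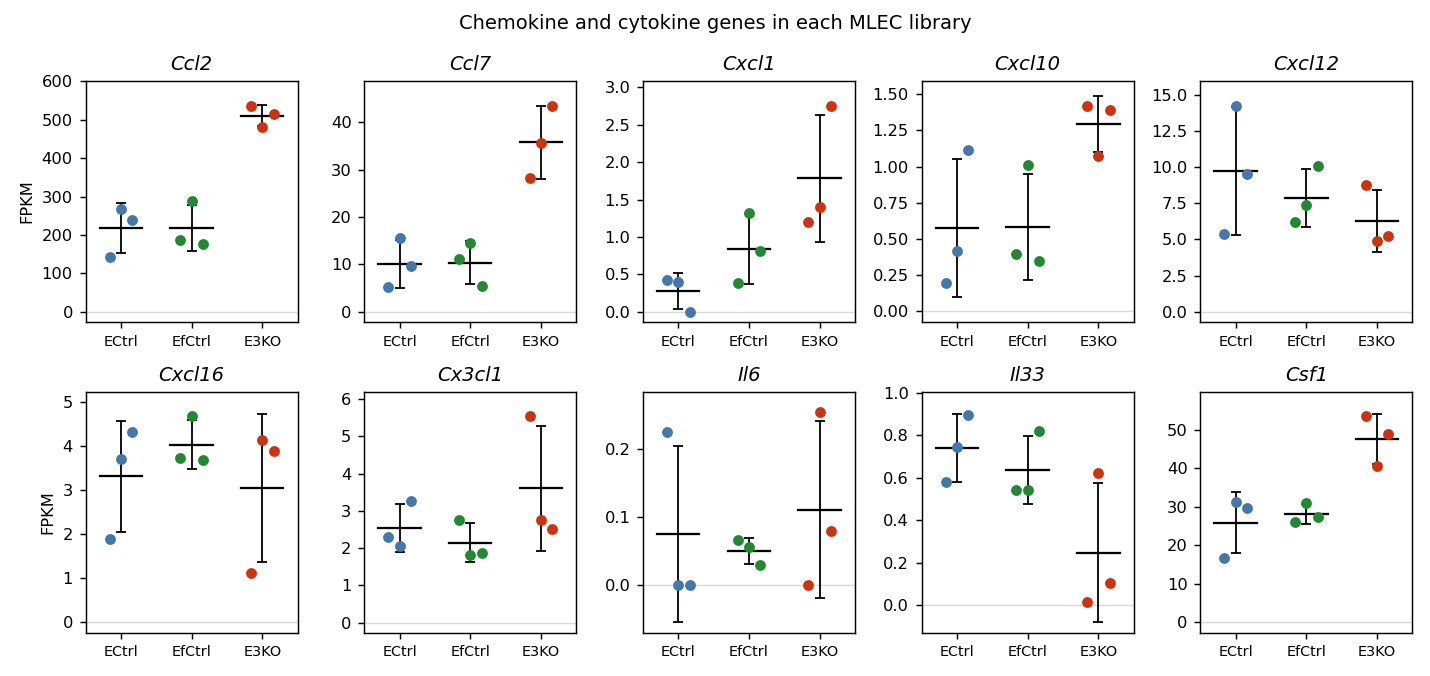
FPKM of each of the 10 genes (vertical axis, linear, a separate range per gene) in the 3 libraries of ECtrl, EfCtrl and E3KO, drawn from left to right as replicates 1 to 3, with lines at the mean and bars of 1 SD. The E3KO points of Ccl2 (482 to 537 FPKM), Ccl7 (28.3 to 43.5 FPKM) and Csf1 (40.6 to 53.4 FPKM) lie above every control point, while for the other 7 genes the groups overlap.

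Ccl2 encodes the CC chemokine that calls CCR2-bearing monocytes out of the blood. It was at 144, 269 and 239 FPKM in ECtrl, at 188, 287 and 178 FPKM in EfCtrl and at 537, 482 and 514 FPKM in E3KO. The control groups overlapped each other, and the lowest E3KO library was well above the highest control. Group means were 217 ± 65.4 FPKM in ECtrl, 218 ± 60.5 FPKM in EfCtrl and 511 ± 27.7 FPKM in E3KO (SD, n = 3 each), a ratio of 2.35 to all controls. The coefficient of variation was 5.41% among E3KO libraries and 25.9% among the 6 controls.

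On the log2(FPKM + 1) scale Ccl2 was higher in E3KO by 1.27 (SE 0.22, 95% interval 0.76 to 1.78) against the mean of both controls, with an adjusted p = 0.0224 in limma's moderated test across all 11107 genes. Against ECtrl alone the difference was 1.28 (adjusted p = 0.0461 in limma), a call that was lost in all 9 fits that left out 1 library, and against EfCtrl alone it was 1.26 (adjusted p = 0.0671), which does not pass 0.05. EfCtrl against ECtrl gave 0.02, with an interval of -0.57 to 0.61. In the exact two-sided permutation test of E3KO against the 6 controls, the unadjusted p was 0.0119, the smallest that 84 splits allow. Without E3KO replicate 1 the difference was 1.23, with an adjusted p = 0.0536 in limma and an exact p = 0.0357, the smallest for 28 splits. The Ccl2 row spans chr11:82028224-82038562 and also covers Gm17268 on the opposite strand, which was listed at 0.

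Ccl7 encodes a second monocyte-attracting CC chemokine with several receptors. It was at 5.28, 15.5 and 9.59 FPKM in ECtrl, at 11.1, 14.5 and 5.55 FPKM in EfCtrl and at 28.3, 35.6 and 43.5 FPKM in E3KO. Its E3KO libraries were spread more widely than those of Ccl2, with the library labelled E3KO replicate 1 the lowest of them. The mean was 10.3 ± 4.33 FPKM over the controls (SD, n = 6) and 35.8 ± 7.63 FPKM in E3KO (SD, n = 3), a ratio of 3.49.

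The log2 difference of Ccl7 was 1.79 (SE 0.35, 95% interval 0.99 to 2.58, adjusted p = 0.0300 in limma) against the mean of both controls. Against single control groups it was 1.81 (adjusted p = 0.0603) for ECtrl and 1.76 (adjusted p = 0.0818) for EfCtrl, so neither passed. EfCtrl differed from ECtrl by 0.05 (interval -0.87 to 0.97). Without E3KO replicate 1 the difference was 1.94 (adjusted p = 0.0492 in limma). The exact permutation p, unadjusted, was 0.0119 with all libraries and 0.0357 without that one, in each case the smallest possible.

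Csf1 encodes macrophage colony-stimulating factor, the ligand of CSF1R. It was at 16.7, 31.1 and 29.6 FPKM in ECtrl, at 26.0, 31.1 and 27.2 FPKM in EfCtrl and at 53.4, 40.6 and 48.9 FPKM in E3KO. The other controls lay close together, ECtrl replicate 1 lay below them, and the E3KO libraries did not overlap with any. The mean was 27.0 ± 5.42 FPKM in the controls (SD, n = 6) and 47.7 ± 6.50 FPKM in E3KO (SD, n = 3), a ratio of 1.77.

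The log2 difference of Csf1 was 0.82 (SE 0.20, 95% interval 0.37 to 1.27) against the mean of both controls, with an adjusted p = 0.0551 in limma. It was 0.90 against ECtrl (adjusted p = 0.0794) and 0.74 against EfCtrl (adjusted p = 0.162). The exact permutation p, which is not adjusted for the 10 members tested, was 0.0119, and 0.0357 without E3KO replicate 1. Without E3KO replicate 1 the difference was 0.73 (adjusted p = 0.120 in limma). Leaving out ECtrl replicate 1, the low control, gave an adjusted p = 0.0365, which passes.

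Counted over the members, 2 of the 6 tested genes were called higher and 0 lower in E3KO against the mean of both controls, where 1.47% of all genes were called higher, 3.21% lower and 4.67% in either direction. Against ECtrl, 1 of 6 was called (Ccl2, with a background of 0.774% higher, 1.35% lower and 2.12% in either direction), and against EfCtrl 0 of 6 were called (background 0.333% higher, 0.558% lower and 0.891% in either direction), although 3 of 6 had an unadjusted p under 0.05 there, beside 17.6% of all genes. EfCtrl against ECtrl gave 0 calls in limma among the members and 0 among all genes, with 202 genes at an unadjusted p under 0.05. The median log2 difference of the 6 was 0.62 against the mean of both controls, beside -0.09 over all genes. The 4 members that did not pass the filter are not part of these counts. The members were chosen with earlier results of these data known, so the counts are not those of a list chosen blind to them. Without E3KO replicate 1, 1 of 6 was called against the mean of both controls (Ccl7).

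**Figure D2:**
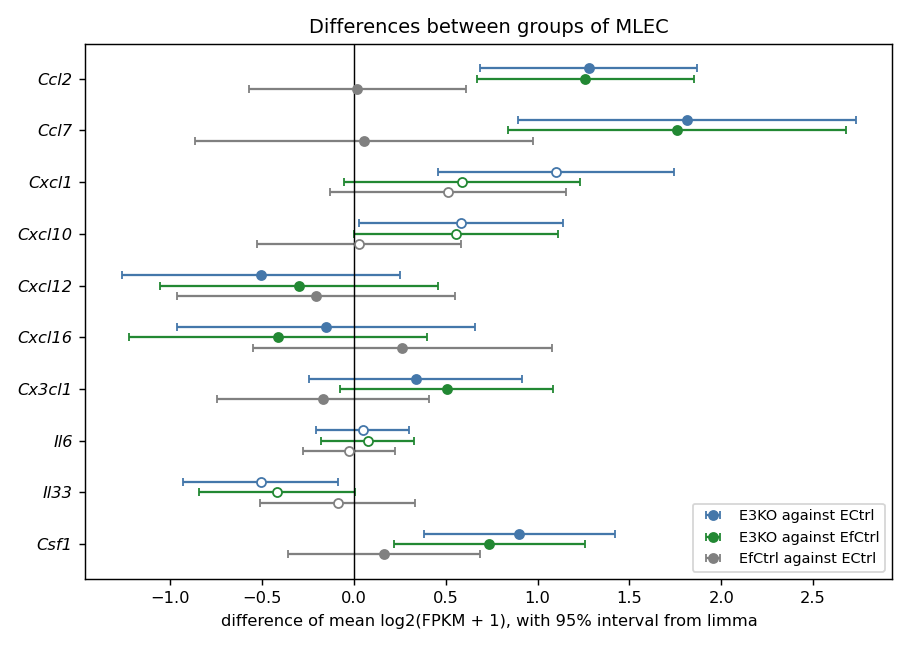
Differences of mean log2(FPKM + 1) (horizontal axis) with 95% intervals from limma for E3KO against ECtrl (blue), E3KO against EfCtrl (green) and EfCtrl against ECtrl (grey); open points mark the 4 genes below the filter, taken from a fit without it. For Ccl2, Ccl7 and Csf1 both E3KO intervals lie above 0 (Ccl2 0.69 to 1.87 against ECtrl and 0.67 to 1.85 against EfCtrl), and the grey intervals of all 10 genes include 0.

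**Figure D3:**
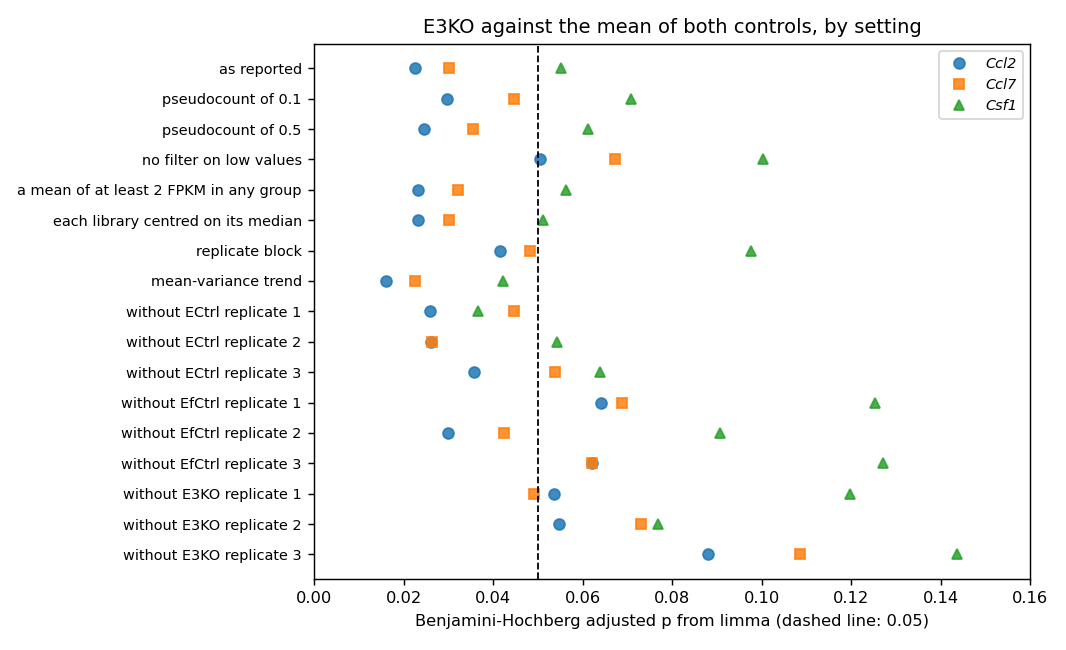
Benjamini-Hochberg adjusted p from limma (horizontal axis, linear) for E3KO against the mean of both controls, for Ccl2, Ccl7 and Csf1 under each processing setting (vertical axis); the dashed line marks 0.05. With 1 library left out, Ccl2 lay between 0.0258 and 0.0879 and Ccl7 between 0.0263 and 0.108, each under 0.05 in 4 of 9 fits, and Csf1 between 0.0365 and 0.144, under 0.05 in 1 of 9.

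The calls of Ccl2 and Ccl7 depended on single libraries of both kinds, as the plot of adjusted p by setting shows, while their differences stayed between 1.13 and 1.38 for Ccl2 and between 1.61 and 1.96 for Ccl7. Ccl2 was lost without EfCtrl replicate 1 or 3 or without any 1 of the E3KO libraries, and Ccl7 without ECtrl replicate 3, EfCtrl replicate 1 or 3 or E3KO replicate 2 or 3.

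Cxcl12 is the homeostatic CXC chemokine that holds CXCR4-bearing cells in place. It was at 5.39, 14.2 and 9.53 FPKM in ECtrl, at 6.19, 7.37 and 10.1 FPKM in EfCtrl and at 8.74, 4.92 and 5.21 FPKM in E3KO. E3KO replicates 2 and 3 lay just below the lowest control and E3KO replicate 1 in the middle of the controls. The log2 difference was -0.40 (95% interval -1.06 to 0.25, adjusted p = 0.419 in limma; exact permutation p = 0.214). Without E3KO replicate 1 it was -0.63 (adjusted p = 0.277 in limma; exact permutation p = 0.107), and with any 1 library left out it lay between -0.63 and -0.25.

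Cxcl1, a ligand of the neutrophil receptor CXCR2, was close to the lower limit of these data. It was at 0.429, 0.405 and 0 FPKM in ECtrl, at 0.386, 1.32 and 0.818 FPKM in EfCtrl and at 1.20, 1.40 and 2.75 FPKM in E3KO. Of the E3KO libraries, 2 were above every control and replicate 1 was below EfCtrl replicate 2. The mean was 0.559 ± 0.453 FPKM in the controls (SD, n = 6) and 1.78 ± 0.847 FPKM in E3KO (SD, n = 3). The exact permutation p, unadjusted, was 0.0238 with a pseudocount of 1 and 0.0595 with a pseudocount of 0.1. It was 0.0357 without E3KO replicate 1. In the fit without a filter the adjusted p was 0.136 in limma.

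Cxcl10, the interferon-inducible ligand of CXCR3, was in the same low range. It was at 0.197, 0.416 and 1.11 FPKM in ECtrl, at 0.398, 1.01 and 0.349 FPKM in EfCtrl and at 1.42, 1.07 and 1.39 FPKM in E3KO. The lowest E3KO library lay between the highest controls, and the exact permutation p was 0.0595 (0.107 without E3KO replicate 1). The row of Cxcl10 spans chr5:92331827-92414628, which holds Art3 on the opposite strand and Cxcl11 on the same one. Whether reads were counted by strand is not given in the sources used here, so their reads may not be separable.

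Cx3cl1 and Cxcl16 are made as membrane-anchored chemokines on a mucin stalk, so that each can both hold and attract leukocytes. Cx3cl1, the ligand of CX3CR1, was at 2.29, 2.05 and 3.27 FPKM in ECtrl, at 2.75, 1.80 and 1.87 FPKM in EfCtrl and at 5.53, 2.76 and 2.51 FPKM in E3KO. Only the library labelled E3KO replicate 1 was above the controls: the log2 difference was 0.42 (95% interval -0.08 to 0.92, adjusted p = 0.281 in limma), and 0.14 without that library. Cxcl16, the ligand of CXCR6, was at 1.89, 3.71 and 4.32 FPKM in ECtrl, at 3.72, 4.67 and 3.68 FPKM in EfCtrl and at 1.11, 4.14 and 3.88 FPKM in E3KO. The same E3KO library was the lowest of all 9, and the log2 difference of -0.28 (95% interval -0.99 to 0.42, adjusted p = 0.603 in limma) became 0.13 without it. The row of Cxcl16 overlaps Zmynd15 on the opposite strand.

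Il6, the acute-phase cytokine, was near 0 in every group. It was at 0.224, 0 and 0 FPKM in ECtrl, at 0.0658, 0.0562 and 0.0294 FPKM in EfCtrl and at 0, 0.254 and 0.0792 FPKM in E3KO. No fold is given for it. Il33, a nuclear alarmin of the IL-1 family, was at 0.578, 0.744 and 0.897 FPKM in ECtrl, at 0.543, 0.544 and 0.820 FPKM in EfCtrl and at 0.0130, 0.622 and 0.104 FPKM in E3KO. E3KO replicates 1 and 3 were below all controls and E3KO replicate 2 lay among them, with an unadjusted exact permutation p of 0.0476 that became 0.143 without E3KO replicate 1, and an adjusted p = 0.197 in limma without the filter.

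Because FPKM is scaled to transcript length, the members can be ranked against each other within these libraries. In the controls the order of mean FPKM was Ccl2, Csf1, Ccl7, Cxcl12, Cxcl16, Cx3cl1, Il33, Cxcl10, Cxcl1 and Il6. The ranges of Ccl7 and Cxcl12 overlapped, as did those of Cxcl16 and Cx3cl1 and of each neighbouring pair among the lowest 4 genes. In E3KO the same first 4 genes led, and Ccl7 was now above Cxcl12 in 3 of 3 libraries with no overlap, having been above it in 4 of 6 controls. Ccl2 alone made up 77.9% to 82.2% of the members' summed FPKM in the controls and 82.6% to 84.3% in E3KO, and its mean over all libraries was above that of 99.2% of symbols with any value. The sum of the 10 was 177 to 350 FPKM in the controls and 573 to 636 FPKM in E3KO.

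Macrophages and fibroblasts, which can be carried along in a bead selection, also make these factors, and their markers were read in the same libraries. In bulk RNA, fewer cells of a type and less RNA per cell cannot be told apart. All 10 of the 10 tested macrophage and leukocyte markers had a positive difference in E3KO against the mean of both controls (median 0.59). Of these, 0 were called higher or lower and 5 were at an unadjusted p under 0.05, beside 23.7% of all genes. Against ECtrl alone all 10 were positive (median 0.93), but against EfCtrl alone 7 of the 10 were (median 0.34). Between the control groups, 9 of the 10 markers were higher in EfCtrl than in ECtrl (median 0.49). Without E3KO replicate 1, 1 of them was called higher (Cd68, a macrophage lysosomal protein, adjusted p = 0.0262 in limma). Their summed level over 15 markers was 93.0 to 183 FPKM in ECtrl, 187 to 303 FPKM in EfCtrl and 239 to 378 FPKM in E3KO, and 1 marker was at 0 in every library. Lyz2 led the sum, with a mean of 134 FPKM over all libraries, followed by Cd14 (25.8 FPKM) and Cd68 (24.8 FPKM). Of the 15, 2 had all E3KO libraries above all controls, beside 4.99% of all genes tested. They were Fcer1g, at 26.5 to 37.4 FPKM against 9.46 to 22.9 FPKM (adjusted p = 0.0936 in limma), and Itgam, at 1.66 to 1.98 FPKM against 0.156 to 1.30 FPKM (adjusted p = 0.0666). Ptprc, Adgre1 and Csf1r were at most 1.59, 1.42 and 2.26 FPKM, with E3KO libraries within or below the control range except Ptprc in E3KO replicate 3.

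This sum was read beside the members, between the groups and within them. It was higher in every EfCtrl library than in every ECtrl library. The EfCtrl to ECtrl ratio was 1.00 for Ccl2, 1.03 for Ccl7 and 1.09 for Csf1. EfCtrl replicate 2 had a sum of 303 FPKM and 287 FPKM of Ccl2. E3KO replicate 1, the library that stood apart in composition, had a sum of 239 FPKM and 537 FPKM of Ccl2. Over the 3 libraries within a group, Ccl7 had the same order as the sum in ECtrl, in EfCtrl and in E3KO. Ccl2 had it in ECtrl and EfCtrl but not in E3KO, and Csf1 in ECtrl only. The part of these cells in the result was not tested.

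**Figure D4:**
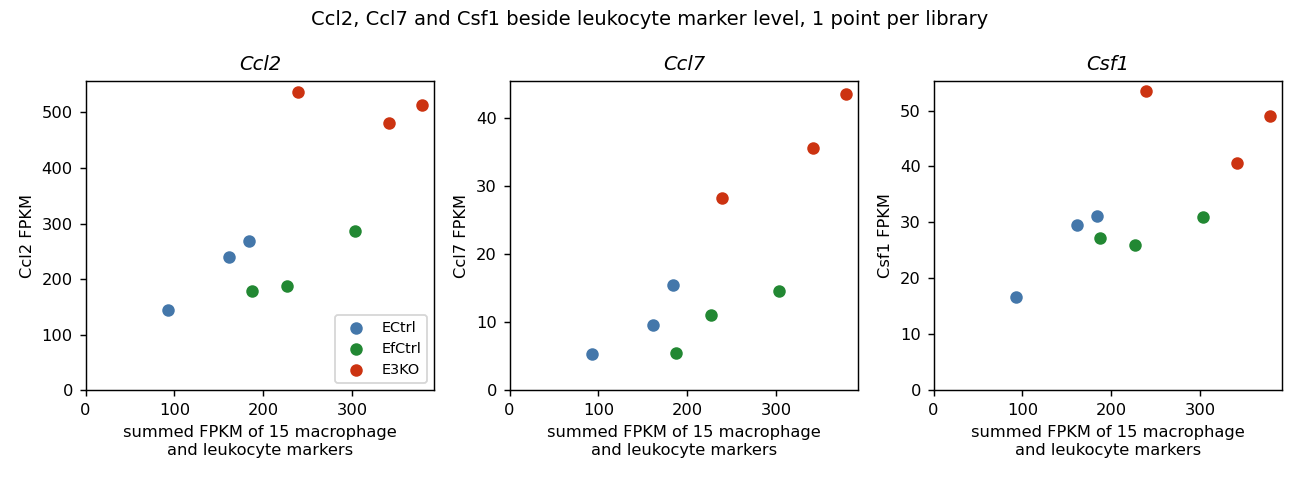
FPKM of Ccl2, Ccl7 and Csf1 (vertical axes, from 0) against the summed FPKM of 15 macrophage and leukocyte markers (horizontal axis, from 0), 1 point per library. The E3KO libraries (239 to 378 FPKM of the sum) lie above the EfCtrl libraries (187 to 303 FPKM) for all 3 genes. The ranges of the sum overlap between these groups.

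Fibroblast and smooth muscle markers went the other way. All 6 tested ones had a negative difference in E3KO against the mean of both controls (median -1.09), with 0 called. Of these, 3 were at an unadjusted p under 0.05, beside 23.7% of all genes. Without E3KO replicate 1 the median was -0.85, and Dcn had a positive difference (0.23). Against EfCtrl alone the median was -1.46 with 0 positive, and against ECtrl alone it was -0.71 with 2 positive. The 12 listed markers summed to 13.5 to 49.1 FPKM in ECtrl, 28.0 to 83.3 FPKM in EfCtrl and 12.5 to 26.3 FPKM in E3KO. Cxcl12, a product of stromal cells as well as endothelium, had the same order as that sum over the ECtrl libraries and over the EfCtrl libraries. In E3KO its highest value, 8.74 FPKM, was in replicate 1, the library that stood apart in composition, where the sum was lowest (12.5 FPKM). It was at 4.92 and 5.21 FPKM in replicates 2 and 3, where the sum was higher (up to 26.3 FPKM). The 10 epithelial markers were low except in E3KO replicate 1, where the club cell gene Scgb1a1 reached 46.2 FPKM against at most 1.87 FPKM elsewhere, and the 5 mesothelial markers summed to at most 3.60 FPKM. Among 12 endothelial markers 1 was called higher and 0 lower, beside 1.47% and 3.21% of all genes. It was Emcn, at 1452 to 1557 FPKM in E3KO against 822 to 1095 FPKM in the controls (log2 difference 0.63, adjusted p = 0.0261 in limma, and 0.0548 without E3KO replicate 1). That call was kept in 4 of 9 fits with 1 library left out, those without any 1 of the ECtrl libraries or EfCtrl replicate 2. The part of these other cells was not tested.

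The other genes of the network were read from lists. Of 29 further chemokines 8 were tested, and 0 were called higher and 1 lower, beside 1.47% and 3.21% of all genes. That gene was Ccl21a, a ligand of CCR7 made by lymphatic endothelium, at 9.83, 2.03 and 5.15 FPKM in ECtrl, 5.31, 3.37 and 4.24 FPKM in EfCtrl and 1.02, 0.705 and 0.591 FPKM in E3KO. It fell in all 3 E3KO libraries (log2 difference -1.65, SE 0.34, adjusted p = 0.0363 in limma), but with an adjusted p = 0.0647 without E3KO replicate 1. With 1 library left out the adjusted p was 0.0159 to 0.117, and the call was kept in 2 of 9 fits, those without ECtrl replicate 1 or 2. Ccl21a has near-identical copies, so its value is uncertain. Their median difference was 0.52, beside -0.09 for all genes.

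Of 28 further cytokines and colony-stimulating factors 13 were tested, with a median of -0.41 that was -0.05 without E3KO replicate 1. Flt3l, counted among the 13, shares its row with Rpl13a, so its value covers both genes. Among the 13 tested, 0 were called higher and 1 lower, beside 1.47% and 3.21% of all genes. The 1 was Tnfsf10, the death ligand TRAIL, at 1.93, 2.78 and 2.36 FPKM in ECtrl, 1.95, 2.18 and 1.72 FPKM in EfCtrl and 0.362, 1.15 and 0.942 FPKM in E3KO. All E3KO libraries were below all controls, as was so for 11.4% of all genes tested (log2 difference -0.81, SE 0.16, adjusted p = 0.0303 in limma, and 0.0413 without E3KO replicate 1). With 1 library left out the adjusted p was 0.0385 to 0.0893, and the call was kept in 3 of 9 fits, those without ECtrl replicate 1 or E3KO replicate 1 or 2. Csf3, the granulocyte colony-stimulating factor, named after its values were seen, was at 1.91 to 5.26 FPKM in E3KO and 0.0394 to 1.55 FPKM in the controls, with an adjusted p = 0.0567 in limma, and 0.0570 without E3KO replicate 1.

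Receptors for these ligands held no call among 7 tested of 22, with a median of 0.07 and 3 at an unadjusted p under 0.05, beside 23.7% of all genes. There was again no call without E3KO replicate 1, and the median was then 0.22. Cxcr4, the receptor of Cxcl12, was the highest, at 198 ± 34.0 FPKM in the controls (SD, n = 6) and 209 ± 36.7 FPKM in E3KO (SD, n = 3), with an adjusted p = 0.795 in limma. Il6st, the signalling subunit for IL-6, was at 52.8 FPKM in the controls and 65.6 FPKM in E3KO (adjusted p = 0.119). Ackr2, a scavenger of CC chemokines, was at 16.9 and 23.8 FPKM (adjusted p = 0.0700). Of the 22, 3 had all E3KO libraries above all controls (Ackr1, Ackr2 and Il6st), beside 4.99% of all genes tested. Ackr1, named after its values were seen, did not pass the filter. It was at 0.796 to 3.75 FPKM in E3KO and at most 0.412 FPKM in the controls.

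Of 16 genes for shedding, trimming and transcript decay 12 were tested, with a median of -0.07. Among them 1 was called higher and 0 lower, beside 1.47% and 3.21% of all genes. Zfp36 encodes tristetraprolin, which promotes decay of AU-rich transcripts. It was at 1.89, 2.03 and 1.75 FPKM in ECtrl, 1.54, 2.34 and 2.44 FPKM in EfCtrl and 4.34, 4.12 and 3.998 FPKM in E3KO. It rose by 0.79 (SE 0.12, adjusted p = 0.0142 in limma, and 0.0317 without E3KO replicate 1). The groups did not overlap, as was so in this direction for 4.99% of all genes tested. It was called in 8 of the 9 fits that left out 1 library, the exception being E3KO replicate 3 (adjusted p = 0.0716).

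Of 26 NF-kappaB, AP-1 and other inducible transcription factors 21 were tested, with a median of 0.10. Among them 0 were called higher and 1 lower, near the shares of 1.47% and 3.21% of all genes. The 1 was Jun, the JNK substrate, at 14.7, 11.4 and 13.2 FPKM in ECtrl, 13.5, 11.3 and 13.0 FPKM in EfCtrl and 7.14, 9.24 and 8.15 FPKM in E3KO. It fell by 0.60 on the log2 scale (SE 0.12, adjusted p = 0.0331 in limma), and by 0.51 with an adjusted p = 0.0648 without E3KO replicate 1. With 1 library left out the adjusted p was 0.0350 to 0.105, and the call was kept in 2 of 9 fits, those without ECtrl replicate 2 or E3KO replicate 2. Its groups did not overlap, as was so in this direction for 11.4% of all genes tested.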

How the data were processed

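Paired 40-bp reads of total RNA from 9 MLEC libraries (3 per group) were aligned by the authors with TopHat to mm10 and quantified with Cufflinks (version 1.0.3 in the submitters' processing notes). The deposited values are FPKM per library for 37104 loci, with group FPKM and the authors' fold changes (log2 and p-values), which were not used. The depth of each library is unknown; the methods give an average only. Symbols with a single locus (33353) were kept, and 11107 genes whose mean log2(FPKM + 1) was at least 1 were tested with limma 3.58.1 (R 4.3.3), fitting all 3 groups together, with Benjamini-Hochberg adjustment over all of them and a threshold of 0.05. Fold changes are on the log2(FPKM + 1) scale, which understates those of low genes. Exact two-sided permutation tests (scipy 1.17.1) compared E3KO with the 6 controls for each member; 3 against 3 cannot go below 0.1 and was not tested. The scripts were tested on simulated data with 200 changed genes. Libraries are separate isolations; same-numbered libraries are not from the same mice. Genes named are the members, the 3 JNK genes and, from each list, up to 5 called genes by size of change or, where none was called, the 3 highest; defining markers are given by level. The members and lists were chosen with earlier results of these data known. Alternatives covered pseudocount, filter, centring, samples in the fit, a replicate block, a mean-variance trend and leaving out each library. Promoter and coding sequences came from RefSeq (GRCm38.p6) and GENCODE M21.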

Additional observations from a re-analysis of the deposited data

Results flagged for a closer look

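Among the 6 control libraries, 3 members had a library farther from the rest than the 95% limit of Dixon's test for 6 values, which chance passes in about 1 of 20 groups. All 3 were ECtrl replicate 1: Csf1 at 16.7 FPKM (gap over range 0.647), Cxcl16 at 1.89 FPKM (0.647) and Il6 at 0.224 FPKM (0.707). Csf1 and Cxcl16 were lowest there and Il6 highest. ECtrl replicate 1 was the lowest control for 6 of the 10 members.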

How the results depend on the processing

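The depth of single libraries is unknown, so counting error could not be set apart from differences between isolations, and with 3 libraries a group the calls moved with single libraries. The direction of Ccl2, Ccl7 and Csf1 in E3KO was the same under every alternative run. Of the members called against ECtrl, the count of 1 became 0 with a pseudocount of 0.1 or 0.5, without a filter, with a replicate block and with only the groups compared, 2 with a mean-variance trend, and 0 to 0 with 1 library left out. Against EfCtrl, 0 became 1 with the trend and 0 to 2 with 1 library left out, the 2 being Ccl2 and Csf1 without ECtrl replicate 1. Against the mean of both controls, 2 became 0 without a filter, 3 with the trend (Csf1 added, adjusted p = 0.0422 in limma), and 0 to 3 with 1 library left out.

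Genes called against ECtrl numbered 236, and 95 without a filter, 1 with the replicate block, 0 with only the groups compared and 1 to 202 with 1 library left out. Against EfCtrl they numbered 99, and 17, 1, 30 and 1 to 219 in the same order. Against the mean of both controls they numbered 519, 231 with the block and 9 to 411 with 1 library left out, the lowest without E3KO replicate 3. EfCtrl against ECtrl gave 0, and 0 to 4 with 1 library left out. The block kept 2 members called against the mean of both controls. Same-numbered libraries correlated in their deviations from group means at -0.05 to 0.14 over 9 pairs, and other pairs at -0.24 to 0.09 over 18. By this measure 5 of 9 libraries were closest to their own number. These values do not settle whether the numbers mark a shared batch, and the main fit used no replicate block.

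The sign of Cxcl16 depended on single libraries: with 1 left out, its difference was -0.42 to 0.26 against ECtrl, -0.64 to 0.00018 against EfCtrl and -0.51 to 0.13 against the mean of both controls, with 0.13 without E3KO replicate 1 in the exact permutation test as well. EfCtrl against ECtrl, with 1 library left out, was -0.25 to 0.20 for Ccl2, -0.30 to 0.41 for Ccl7, -0.54 to 0.090 for Cxcl12, -0.00032 to 0.44 for Cxcl16 and -0.11 to 0.32 for Csf1. The exact permutation test of Cxcl1 did not pass with a pseudocount of 0.1, at a difference of 1.81. Apart from those built from fewer genes or samples, the cause of these moves was not tested.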
